A study of Mus musculus with 48 samples.

Results

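Of the 48 tumors of the series, 9 were B16-D5 melanomas of wild-type (WT) mice given control IgG, with 3 tumors collected at 6 h, 3 at day 1 and 3 at day 3. They were chosen by treatment, genotype and time from the sample titles, without use of any measured value, and they were compared with each other across all genes. Earlier results of these data were known when that choice was made. B16-D5 is a poorly immunogenic subclone of a mouse melanoma line of C57BL/6 origin, and it was grown under the flank skin of C57BL/6J mice for 8 days before the first dose. The mice arrived at 4 weeks of age and were kept for 2 weeks before the experiments. Each dose was 250 µg of antibody in 200 µL of PBS, given on days 0 and 3. Whether the day 3 tumors were taken before or after the second dose is not given in the sources used here. The same experiment holds 9 untreated and 9 anti-PD-1-treated WT tumors at the same times, and 3 untreated WT tumors at 0 h. The titles call the earliest IgG tumors D0, taken here as 6 h. Of the 9 IgG samples, 3 carry IgG in the treatment field, 3 carry a time that matches the title, and 0 carry both.

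A control IgG is meant to have no target in the tumor and stands in for the injection and for the constant part of a therapeutic antibody. That constant part can bind Fc gamma receptors, which sit mainly on macrophages, monocytes, neutrophils and NK cells, and it can feed the complement cascade. A tumor under the skin also changes over days without any drug, through tumor cell division, leukocyte entry, and growth of vessels and matrix. A series of IgG tumors therefore shows the course against which a treatment would be read. RNA of the whole tumor was sequenced, so fewer cells of a type and less RNA per cell cannot be told apart in any value below.

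Levels are given as CPM, a library's counts scaled to a common TMM-normalized library size, and differences as log2 fold changes with an approximate standard error (SE). The SE was derived from edgeR's quasi-likelihood F-test, as the absolute log2 fold change divided by the square root of the F statistic. The 9 libraries held 25574203 to 41799563 counts on genes, and 3 counts, the limit that a count of 0 allows, were worth 0.0727 to 0.105 CPM (counting error only). The melanocyte genes Dct (3832 to 5445 CPM), Tyrp1 (3151 to 5156 CPM) and Pmel (1377 to 2599 CPM) were high in every tumor, as the tumor label requires. One library stood apart in base composition. In IgG 6 h replicate 6, the median log2 deviation of GC-rich genes minus that of GC-poor genes was −1.10, against −0.08 to 0.25 in the other 29 libraries of the experiment. Keratinocyte and hair genes summed to 1330 CPM in day 1 replicate 6 and 506 CPM in 6 h replicate 1, against 9.5 to 18.1 CPM in the other 7. Skeletal muscle genes summed to 22089 CPM in day 1 replicate 6, 1211 CPM in 6 h replicate 1 and 420.5 CPM in day 3 replicate 2, against 53.0 to 102.3 CPM in the rest. Values without single tumors stand beside the results below, and the range over these fits is plotted for every list.

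**Figure D1:**
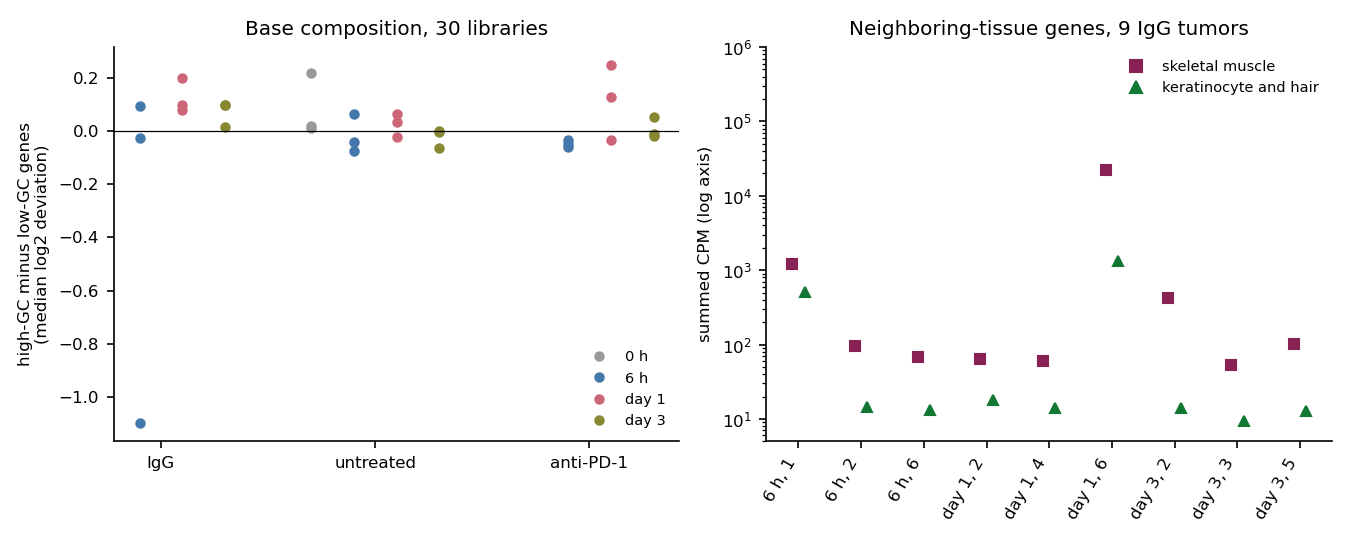
Left, difference in median log2 deviation between GC-rich and GC-poor genes in the 30 libraries of the experiment, by treatment and, in color, time. Right, summed CPM (log axis) of skeletal muscle genes and of keratinocyte and hair genes in each of the 9 IgG tumors. IgG 6 h replicate 6 lies at −1.10, below the other 29 libraries, and day 1 replicate 6 holds 22089 CPM of muscle genes.

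At day 1, tumors had lower RNA of mitotic genes than at 6 h and higher RNA of Fc receptor, complement, macrophage and antigen presentation genes, but no gene passed correction for the number of genes tested. Of 26848 genes, 0 (0%) had an adjusted p under 0.05 in edgeR's quasi-likelihood test with Benjamini-Hochberg adjustment, and the lowest adjusted p was 0.436. At an unadjusted p under 0.05, 1371 genes (5.11%) were higher and 1368 (5.10%) lower at day 1. The 3 tumors of day 1 lay above all 3 of 6 h in 1719 genes (6.40%) and below all 3 in 2235 (8.32%). All differences that follow are therefore values that did not pass the test, and counts of list members are read against these shares. With 1 IgG tumor left out in turn, the counts at an unadjusted p under 0.05 ran from 931 to 1971 higher and from 549 to 1072 lower. Both were lowest without 6 h replicate 6. The filter on low counts was applied anew in every fit without a tumor, here and below, and 29666 to 30523 genes were tested here. Leaving out a day 3 tumor, which is not part of this comparison, already gave 909 to 1064 lower genes. Among protein-coding genes, the median GC content was 54.2% for the genes higher and 45.1% for those lower at day 1, against 50.7% for all tested. With a correction for GC content, 1219 were higher and 1007 lower.

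The genes named next were taken from those with at least 1 CPM in the higher group and no overlap between the groups. Their lack of overlap was thus fixed by the choice. Among the 10 such lower genes with the smallest p-values, 5 act in cell division (Kif18a, Haus6, Kif4, Cenpf and Anln). Kif18a, a kinesin that limits chromosome movement on the mitotic spindle (chr2:109280738-109341747, plus strand, mm10), had 16.1, 11.4 and 26.5 CPM at 6 h and 10.1, 7.61 and 5.71 CPM at day 1. The highest value was that of 6 h replicate 6, and the log2 fold change was −1.21 ± 0.27 (SE). Without that library it was −0.76. The remaining lower genes were Adamts20, Tiprl, Sucla2, Hnrnph1 and Utp14b. Adamts20, a secreted metalloprotease whose loss in mice gives a belt of white fur (chr15:94270163-94465418, minus strand), had 32.2, 28 and 34.1 CPM at 6 h and 17.9, 20.8 and 17.4 CPM at day 1. All 3 day 1 tumors lay below all 3 at 6 h, with a log2 fold change of −0.75 ± 0.15. Tiprl, a regulator of phosphatases of the PP2A family (chr1:165212286-165236996, minus strand), had 28.7, 30.8 and 37.3 CPM at 6 h and 19.9, 23.8 and 17.7 CPM at day 1, a difference of −0.66 ± 0.15.

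By the same rule, the 10 higher genes were Sh2b2, Myd88, Tnfsf13, Wipf1, Tmem106a, Il21r, Rasa4, Camta2, Wdr81 and Pex6. Myd88, the adaptor of Toll-like and IL-1 family receptors, had 15.3, 13.7 and 13.7 CPM at 6 h and 26.9, 36.6 and 28.5 CPM at day 1. The day 1 tumors lay well above a narrow 6 h group, and the log2 fold change was 1.10 ± 0.26. Sh2b2, an adaptor of receptor tyrosine kinases (chr5:136218147-136246556, minus strand), had 6.08, 7.03 and 2.98 CPM at 6 h and 14.7, 10.01 and 10.2 CPM at day 1, a difference of 1.11 ± 0.26. Wipf1, a partner of the actin regulator WASP in blood cells, had 67.1, 97.1 and 30.6 CPM at 6 h and 141, 167 and 209 CPM at day 1, a difference of 1.41 ± 0.35. Both Sh2b2 and Wipf1 were lowest in 6 h replicate 6, and without it their differences were 0.89 and 1.13. Tnfsf13 (APRIL), a survival factor of B and plasma cells, was counted 0, 1 and 0 times at 6 h and had 0.746, 0.630 and 1.8 CPM at day 1. It overlaps a read-through transcript of its neighbor, so its count is uncertain, and no fold is given.

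Mitotic genes as a list were lower in all 3 day 1 tumors. They encode cyclins, kinases, motors and centromere proteins that are made anew in each division and destroyed at its end, so their RNA follows the share of cells in the G2 and M phases. Of 20 genes on the list, 20 were tested, 0 had a positive log2 fold change at day 1, and 16 had an unadjusted p under 0.05 (background 5.10%). The median log2 fold change was −0.64, beside −0.003 over all genes tested. In 15 of the 20, all 3 day 1 tumors lay below all 3 at 6 h. The mean log2(CPM + 0.5) over the list was 6.51, 6.64 and 6.68 at 6 h, 6.07, 5.88 and 6.18 at day 1, and 6.49, 6.14 and 6.62 at day 3. Every day 1 tumor lay below every 6 h tumor, and 2 of the 3 day 3 tumors lay back near the 6 h level.

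Mki67, Top2a and Ccna2 were the 3 mitotic genes with the highest CPM over the IgG tumors, and Cenpf was among the 10 lower genes above. Mki67, the Ki-67 antigen that coats mitotic chromosomes (chr7:135689784-135716361, minus strand), had 1280, 1457 and 2045 CPM at 6 h, 1003, 703 and 1164 CPM at day 1, and 1268, 905 and 1482 CPM at day 3. The day 1 tumors lay below the 6 h tumors and the day 3 tumors overlapped both, with log2 fold changes of −0.74 ± 0.26 at day 1 and −0.39 ± 0.26 at day 3. Top2a, the topoisomerase that untangles sister chromatids (chr11:98992943-99024189, minus strand), had 455, 439 and 554 CPM at 6 h, 290, 281 and 336 CPM at day 1, and 372, 324 and 412 CPM at day 3. Its log2 fold changes were −0.68 ± 0.22 and −0.39 ± 0.22, and in both comparisons the groups did not overlap. Cenpf, a kinetochore protein (chr1:189640606-189688086, minus strand), had 227, 267 and 365 CPM at 6 h, 174, 157 and 168 CPM at day 1, and 228, 167 and 243 CPM at day 3, with −0.78 ± 0.19 at day 1 and −0.43 ± 0.19 at day 3. In Mki67, Top2a and Cenpf the highest tumor was 6 h replicate 6, the library with the odd base composition, and without it the day 1 differences were −0.45, −0.50 and −0.51. Ccna2 (cyclin A2), which acts from S phase into mitosis, had 226, 278 and 337 CPM at 6 h and 161, 144 and 214 CPM at day 1, without overlap and with a difference of −0.70 ± 0.29. Cdk1, the kinase that starts mitosis and a gene chosen after its values were seen, was lowest at 6 h in that library (52.0 CPM beside 59.5 and 59.4), and had 39.7, 33.9 and 34.3 CPM at day 1, a difference of −0.66 ± 0.26. Cdc20, the activator of the anaphase ubiquitin ligase, also chosen after its values were seen, was the weakest member at −0.22 ± 0.34. Its 6 h values were 56.2, 59.8 and 24.1 CPM, and its day 1 values 35, 35.4 and 49.8 CPM, so the groups overlapped. For the list as a whole, the median at day 1 was −0.49 without 6 h replicate 6 (9 genes at an unadjusted p under 0.05), −0.50 with the GC correction (11 genes) and −0.46 without day 1 replicate 4 (6 genes).

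The promoters of the list are shown because its members were lower together. RefSeq on GRCm38.p6 gave a start site for 16 of the 20 genes, and Ccna2, Aurkb, Kif20a and Tpx2 had none in the table used. In the 250 bases before the start, CCAAT on either strand (ATTGG on the other) was found in 14 of the 16 genes (87.5%), beside 33.8% of all 32851 promoters of the table. TTTGAA on either strand (TTCAAA on the other) was found in 6 of the 16 (37.5%), beside 16% of all promoters, and no match of one motif overlapped one of the other. The windows of the 3 genes above are given 5′ to 3′ along the gene, with both motifs in capitals. Mki67 lies at chr7:135716380-135716629, Top2a at chr11:99024190-99024439 and Cenpf at chr1:189688087-189688336, all on the minus strand.
Mki67: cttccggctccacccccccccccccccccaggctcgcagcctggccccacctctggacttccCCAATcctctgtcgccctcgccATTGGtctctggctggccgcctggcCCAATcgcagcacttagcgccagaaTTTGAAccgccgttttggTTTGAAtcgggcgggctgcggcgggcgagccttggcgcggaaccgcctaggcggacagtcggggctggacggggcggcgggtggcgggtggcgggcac
Top2a: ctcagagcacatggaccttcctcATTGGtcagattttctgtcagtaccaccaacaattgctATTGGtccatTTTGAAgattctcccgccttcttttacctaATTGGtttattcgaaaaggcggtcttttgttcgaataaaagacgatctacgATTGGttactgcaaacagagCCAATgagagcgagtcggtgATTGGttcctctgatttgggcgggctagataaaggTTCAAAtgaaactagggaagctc
Cenpf: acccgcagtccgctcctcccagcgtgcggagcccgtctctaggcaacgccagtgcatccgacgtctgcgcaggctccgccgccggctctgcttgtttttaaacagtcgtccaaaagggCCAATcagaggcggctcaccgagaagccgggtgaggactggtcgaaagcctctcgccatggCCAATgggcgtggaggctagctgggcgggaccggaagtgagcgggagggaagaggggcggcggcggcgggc
The Mki67 window holds 3 CCAAT and 2 TTTGAA matches, the Top2a window 6 and 2, and the Cenpf window 2 and 0. A match is a description of these letters and was not tied to binding.

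**Figure D2:**
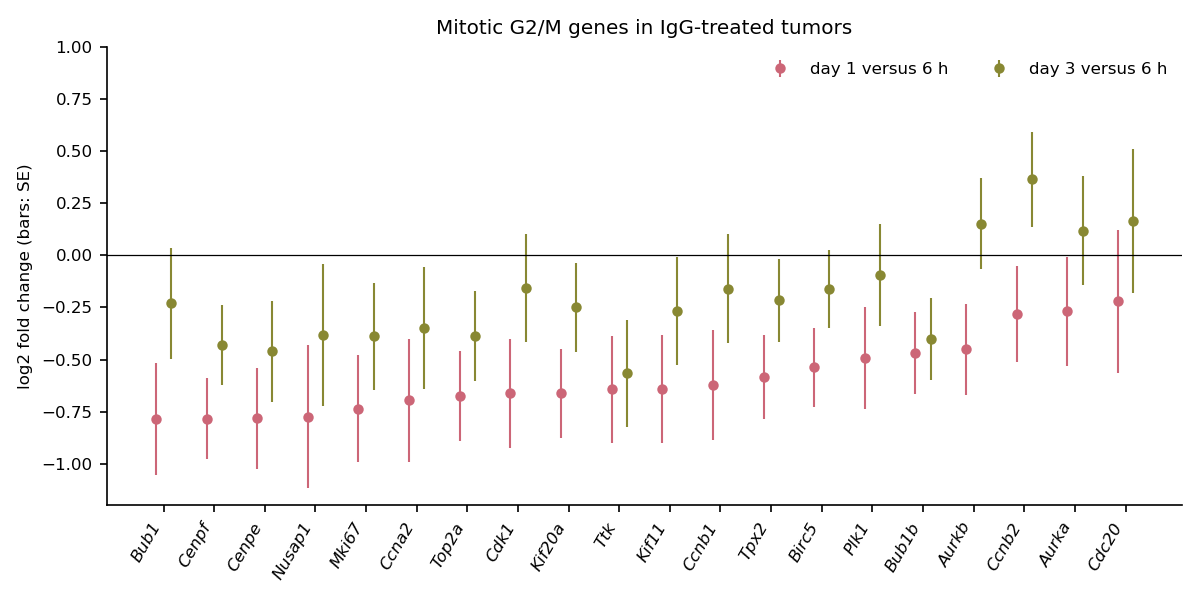
Log2 fold change (± SE, edgeR) of the 20 mitotic genes at day 1 and day 3 relative to 6 h, 3 tumors per time. All 20 points of day 1 lie below 0, and 16 of the 20 points of day 3 do.

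DNA replication genes, which act in S phase, were lower to a smaller extent. The median log2 fold change at day 1 was −0.35, 1 of 20 genes was positive, 6 had an unadjusted p under 0.05 and 7 did not overlap. Without 6 h replicate 1 the median was −0.19, with 2 genes at an unadjusted p under 0.05, and without 6 h replicate 2 it was −0.20, also with 2. Rrm1, the large subunit of ribonucleotide reductase, had 191, 194 and 179 CPM at 6 h and 120, 111 and 141 CPM at day 1, a difference of −0.60 ± 0.29. The 6 h tumors lay in a narrow range, and all 3 day 1 tumors were below it. Mcm2, a subunit of the replicative helicase, had 194, 199 and 148 CPM at 6 h and 130, 119 and 142 CPM at day 1, a difference of −0.47 ± 0.29. At day 3 the list median was −0.02. Melanocyte pigment genes had a median of −0.27 at day 1, with 0 of 17 positive and 2 at an unadjusted p under 0.05, and a median of 0.05 at day 3. The day 1 median was −0.10 without 6 h replicate 1, with 5 genes positive and 0 at an unadjusted p under 0.05, and −0.07 without both keratinocyte-rich tumors, with 7 positive. Without 6 h replicate 2 it was −0.13, and without day 1 replicate 2 or day 1 replicate 6 it was −0.17. Dct, an enzyme of melanin synthesis, had 4852, 5365 and 4391 CPM at 6 h, 4005, 4253 and 4064 CPM at day 1, and 5066, 3832 and 5445 CPM at day 3. Its day 1 values lay just below the 6 h range, with a difference of −0.25 ± 0.19.

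Fc gamma receptor and complement genes were higher at day 1 in every tumor. The mean log2(CPM + 0.5) over the 20 genes was 4.63, 4.93 and 4.94 at 6 h, 5.77, 5.83 and 5.74 at day 1, and 5.03, 5.50 and 5.10 at day 3. The 3 day 1 tumors lay close to each other and above all 6 tumors of the other times. At day 1, 20 of 20 genes had a positive log2 fold change, 10 had an unadjusted p under 0.05 (background 5.11%), 13 did not overlap, and the median was 0.98. It was 1.07 without 6 h replicate 6 and 0.98 with the GC correction.

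C3 and C4b, the complement proteins that are cleaved and tag surfaces, were among the 3 members with the highest CPM. C3 had 70.5, 277 and 249 CPM at 6 h and 465, 366 and 974 CPM at day 1, a difference of 1.60 ± 0.83. C4b had 125, 155 and 69.0 CPM at 6 h and 261, 399 and 355 CPM at day 1, a difference of 1.54 ± 0.49, but its reads are hard to separate from those of its near copy C4a. Without 6 h replicate 6, its lowest tumor, the C4b difference was 1.33. All 3 day 1 tumors lay above the 6 h tumors in both genes. Of the receptors, Fcgr3, Fcer1g and Fcgr4 were chosen after their values were seen. Fcgr3, the low-affinity activating receptor of macrophages and NK cells, had 19.8, 33.7 and 23.2 CPM at 6 h, 62.9, 57.2 and 53.7 CPM at day 1, and 29.6, 38.6 and 34.5 CPM at day 3. Day 1 stood clear of both other times, with a difference from 6 h of 1.18 ± 0.41. Fcer1g, the signaling chain shared by the activating receptors, had 33.3, 31.4 and 33.1 CPM at 6 h and 63.6, 83.4 and 60.03 CPM at day 1, a difference of 1.08 ± 0.42. Fcgr4, an activating receptor of myeloid cells, behaved otherwise, with 35.4, 12.8 and 16.6 CPM at 6 h and 23.4, 101 and 16.8 CPM at day 1. It was high in day 1 replicate 4 alone, and its difference of 1.13 ± 0.59 was −0.03 without that tumor.

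Macrophage genes were also higher at day 1, with a median of 1.22, 18 of 21 positive, 9 at an unadjusted p under 0.05 and 5 that did not overlap. The mean log2(CPM + 0.5) was 4.43, 4.85 and 4.46 at 6 h, 5.69, 4.97 and 5.64 at day 1, and 4.98, 5.03 and 5.07 at day 3. Day 1 replicate 4 lay lowest of the 3 day 1 tumors, just below the range of day 3. Adgre1 and Cd68 were chosen after their values were seen. Adgre1 (F4/80), the classical surface marker of mouse macrophages, had 17.3, 26.2 and 19.4 CPM at 6 h, 62.7, 45.4 and 62.3 CPM at day 1, and 28.7, 53.3 and 34.9 CPM at day 3, with differences from 6 h of 1.44 ± 0.41 and 0.89 ± 0.41. Cd68, a lysosomal protein of phagocytes, had 62.0, 79.8 and 28.2 CPM at 6 h and 158, 136 and 165 CPM at day 1, a difference of 1.44 ± 0.39. Without 6 h replicate 6, its lowest tumor, the Cd68 difference was 1.18. Lyz2, the lysozyme of myeloid cells, had 36.1, 128 and 82.5 CPM at 6 h and 215, 170 and 288 CPM at day 1, a difference of 1.44 ± 0.62. In all 3 genes the day 1 tumors lay above the 6 h tumors. Mrc1, the mannose receptor of resident macrophages, did not follow, with 64.9, 142 and 211 CPM at 6 h and 213, 58.3 and 220 CPM at day 1 (0.23 ± 0.41). Without both keratinocyte-rich tumors the list median was 0.76, with 3 genes at an unadjusted p under 0.05.

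MHC class II and dendritic cell genes, which present antigen to helper T cells, had a median of 1.12 at day 1, with 16 of 16 positive, 7 at an unadjusted p under 0.05 and 6 that did not overlap. Cd74, the invariant chain of MHC class II, had 953, 835 and 701 CPM at 6 h, 1105, 3387 and 2949 CPM at day 1, and 716, 1396 and 838 CPM at day 3. H2-Ab1, the beta chain of I-A, had 169, 245 and 124 CPM at 6 h, 262, 693 and 639 CPM at day 1, and 202, 311 and 188 CPM at day 3. In both genes day 1 replicate 2 lay just above the 6 h tumors and the other day 1 tumors far above them, and the differences were 1.58 ± 0.54 and 1.57 ± 0.55. Without 6 h replicate 6 the list median was 1.10, with 3 genes at an unadjusted p under 0.05.

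**Figure D3:**
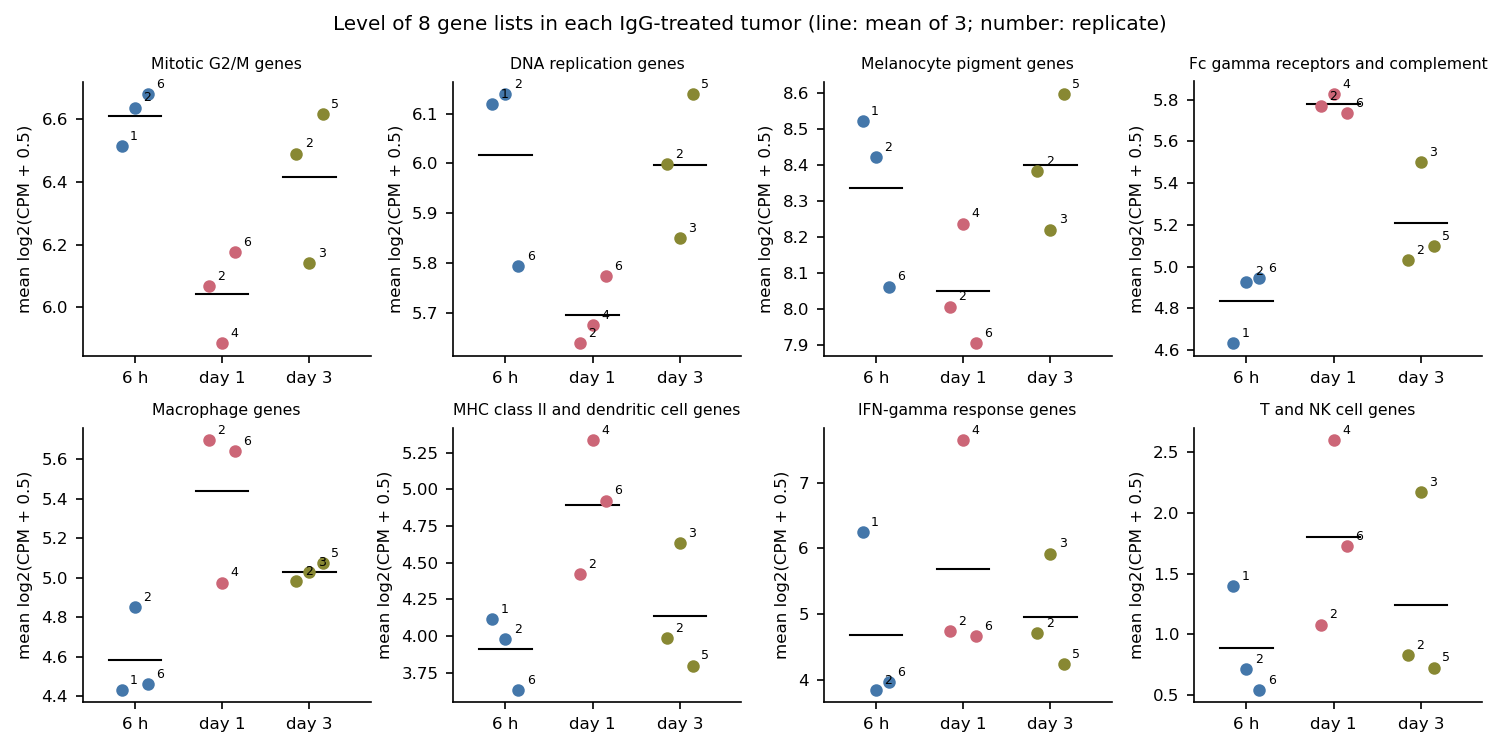
Mean log2(CPM + 0.5) of 8 gene lists in each of the 9 IgG tumors (points, with replicate numbers) and the mean of each time (lines). All 3 day 1 tumors lie below the 6 h tumors in mitotic genes and above them in Fc gamma receptor and complement genes, while IFN-gamma response genes peak in 6 h replicate 1 and day 1 replicate 4.

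Interferon and lymphocyte genes differed widely between tumors of the same time. The mean log2(CPM + 0.5) of 29 IFN-gamma response genes was 6.25, 3.84 and 3.96 at 6 h, 4.74, 7.64 and 4.66 at day 1, and 4.70, 5.92 and 4.23 at day 3. Replicate 1 at 6 h, replicate 4 at day 1 and replicate 3 at day 3 each stood above the other 2 tumors of their time. All 29 genes had a positive log2 fold change at day 1, with a median of 1.21, but only 3 had an unadjusted p under 0.05 and in 0 did the groups not overlap. Without day 1 replicate 4 the median was −0.47, with 5 of 29 positive. When 6 h replicate 1 was left out, which was the high tumor of its time, it was 2.56. Of 30 genes tested in that fit, which include Ido1 unlike the main fit, 27 had an unadjusted p under 0.05. Without both keratinocyte-rich tumors the median was 2.90, with 28 such genes. Over all genes of these fits, 1942 of 30370 and 1512 of 29895 were higher at that threshold. The direction and the count of the list thus each turned on 1 tumor. At day 3 the median was −0.06, and it was 1.23 without 6 h replicate 1.

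Iigp1, an immunity-related GTPase, shows the spread, with 445, 25.2 and 74.6 CPM at 6 h, 80.2, 1118 and 73.3 CPM at day 1, and 72.2, 273 and 40.9 CPM at day 3. One tumor of each time stood far above the other 2, and the difference at day 1 was 1.22 ± 1.09. Irf1, a transcription factor induced by interferon, had 116, 25.3 and 15.7 CPM at 6 h and 39.1, 374 and 33.5 CPM at day 1, a difference of 1.5 ± 0.80. Cd274, which encodes PD-L1, had 56.0, 12 and 18.1 CPM at 6 h and 22.9, 211 and 16 CPM at day 1, a difference of 1.54 ± 0.77. The same tumors were high in all 3 genes, and without day 1 replicate 4 the differences at day 1 were −1.18 for Iigp1, −0.47 for Irf1 and −0.49 for Cd274. Ifng itself had 0.672, 0.0577 and 0 CPM at 6 h, 0.0514, 6.95 and 0.180 CPM at day 1, and 0.588, 0.761 and 0 CPM at day 3, with its highest level in day 1 replicate 4.

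T and NK cell genes followed the same tumors. Their median was 1.41 at day 1, with 31 of 32 positive and 4 at an unadjusted p under 0.05, and it was 0.61 without day 1 replicate 4. Without 6 h replicate 1, 12 genes had an unadjusted p under 0.05, with a median of 1.98. Over all genes of that fit, 1942 of 30370 were higher at that threshold. At day 3 the median was 0.85, and it was −0.25 without day 3 replicate 3 and 1.6 without 6 h replicate 1. Cd8a, a coreceptor of cytotoxic T cells, had 2.11, 0.778 and 0.702 CPM at 6 h, 0.874, 6.18 and 1.49 CPM at day 1, and 0.941, 7.46 and 0.886 CPM at day 3. Pdcd1, which encodes PD-1, had 0.581, 1.12 and 0.105 CPM at 6 h, 0.231, 4.31 and 1.10 CPM at day 1, and 0.147, 6.33 and 0.564 CPM at day 3. For both genes day 1 replicate 4 and day 3 replicate 3 stood above the other 7 tumors.

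For type I interferon-stimulated genes, the day 1 median was 0.60, with 31 of 32 positive and 7 at an unadjusted p under 0.05, and the day 3 median was −0.14. Without day 1 replicate 4 the day 1 median was 0.03, with 19 positive, and without 6 h replicate 1 it was 1.0, with 19 at an unadjusted p under 0.05. Over all genes of the latter fit, 1942 of 30370 were higher at that threshold. The day 3 median without 6 h replicate 1 was 0.33. Irf7, which amplifies type I interferon production, had 52.7, 27.2 and 44 CPM at 6 h, 133, 141 and 65.2 CPM at day 1, and 47.3, 85.1 and 57.4 CPM at day 3. All 3 day 1 tumors lay above the 6 h tumors, with a difference of 1.45 ± 0.62. Irf3, which is made at a steady level and activated by phosphorylation, had 33.5, 27.9 and 19.9 CPM at 6 h and 31.7, 36 and 32.1 CPM at day 1, with overlap and a difference of 0.29 ± 0.17. Ifnb1 had 0 counts in all 9 tumors and was not tested, which allows up to 0.0727 to 0.105 CPM per tumor.

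Nos2, which encodes the inducible nitric oxide synthase that the series was made to study, was higher in 2 of the 3 day 1 tumors. It lies at chr11:78920787-78960254 on the plus strand and had 2.23, 1.47 and 1.93 CPM at 6 h, 7.05, 41 and 1.72 CPM at day 1, and 2.94, 3.17 and 0.913 CPM at day 3. Day 1 replicate 4 had by far the highest value, and day 1 replicate 6 lay within the 6 h range. The log2 fold change was 3.14 ± 0.91 at day 1, and 1.3 without replicate 4, and 0.32 ± 0.85 at day 3.

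Immediate early genes, which answer growth factors and stress within minutes to hours, had a median of 0.69 at day 1, with 18 of 22 positive, 7 at an unadjusted p under 0.05 and 8 that did not overlap. When 6 h replicate 6 was left out, 16 were positive, the median was 0.60, and an unadjusted p under 0.05 was found for 4 higher genes and 1 lower gene. Jund, a subunit of the AP-1 transcription factor, had 140, 243 and 138 CPM at 6 h and 247, 332 and 302 CPM at day 1, a difference of 0.76 ± 0.32. Btg2, an antiproliferative gene, had 5.29, 5.62 and 3.40 CPM at 6 h, 16.6, 14.9 and 13.9 CPM at day 1, and 9.17, 8.83 and 5.66 CPM at day 3, a difference at day 1 of 1.66 ± 0.48. Zfp36, which encodes a protein that promotes decay of inflammatory mRNAs, had 49.3, 46.1 and 19.2 CPM at 6 h and 75.4, 115 and 63.2 CPM at day 1, a difference of 1.14 ± 0.33. Btg2 and Zfp36 were chosen after their values were seen. In all 3 genes the day 1 tumors lay above the 6 h tumors, although in Jund by a small margin. All 3 were lowest in 6 h replicate 6, and without it the differences were 0.68 for Jund, 1.53 for Btg2 and 0.89 for Zfp36.

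Clock genes drive daily rhythms in nearly every tissue, with activators such as Clock and Npas2 and repressors of the Per and Cry families. Since the list holds both, its median (−0.19 at day 1 and 0.02 at day 3) says little of how far its members moved. At day 1, 9 of 19 genes were positive, 1 was higher and 4 lower at an unadjusted p under 0.05 (background 5.11% and 5.10%), and 5 did not overlap. Without day 1 replicate 4, 0 were lower at that threshold, and without 6 h replicate 1 only 1 was. The higher gene was Npas2 (chr1:39193731-39363236, plus strand), chosen for description after its values were seen. In IgG tumors it had 0.244, 1.27 and 0.772 CPM at 6 h, 6.15, 1.45 and 7.07 CPM at day 1, and 0.970, 0.518 and 1.32 CPM at day 3. All 3 day 1 tumors lay above the other 6, with differences of 2.67 ± 0.86 for day 1 and 0.29 ± 0.83 for day 3 from 6 h. Untreated tumors had 0.314, 0.542 and 0.590 CPM at 6 h, 5.66, 2.13 and 1.60 CPM at day 1, and 0.0751, 0.381 and 1.05 CPM at day 3. Anti-PD-1 tumors had 0.332, 0.596 and 0.715 CPM at 6 h, 4.97, 3.34 and 4.21 CPM at day 1, and 0.368, 1.21 and 0.457 CPM at day 3. The 3 courses share no tumor, and the 9 day 1 tumors (1.45 to 7.07 CPM) lay above all 18 tumors of 6 h and day 3 (0.0751 to 1.32 CPM). The day 1 difference was 2.69 ± 0.87 in untreated and 2.92 ± 0.88 in anti-PD-1 tumors. The 3 untreated tumors at 0 h had 0.826, 3.92 and 13.5 CPM, a range that reached above the day 1 values. The time of day at which tumors were taken is not given in the sources used here, and its part in these values was not tested.

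Of the repressors and output genes, Cry1 had 12.9, 12.9 and 11.1 CPM at 6 h and 8.38, 7.32 and 6.55 CPM at day 1 in IgG tumors, without overlap and with a difference of −0.73 ± 0.31. Its difference was −0.09 ± 0.31 in untreated and −0.43 ± 0.31 in anti-PD-1 tumors. The day 1 differences of Tef were −0.39, −0.74 and −0.53 in IgG, untreated and anti-PD-1 tumors, those of Nr1d2 −0.45, −0.59 and −0.16, and those of Per3 −0.60, −1.0 and −0.26. Cry1, Tef, Nr1d2 and Per3 were chosen after their values were seen, as the 4 clock genes lower at an unadjusted p under 0.05 in IgG tumors. Their direction in that course was thus fixed by the choice. All 4 also had negative differences in untreated and anti-PD-1 tumors. In each of those courses 12 of the 19 clock genes were negative at day 1, so a negative difference was the more common direction there. In IgG tumors 9 of the 19 were positive.

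**Figure D4:**
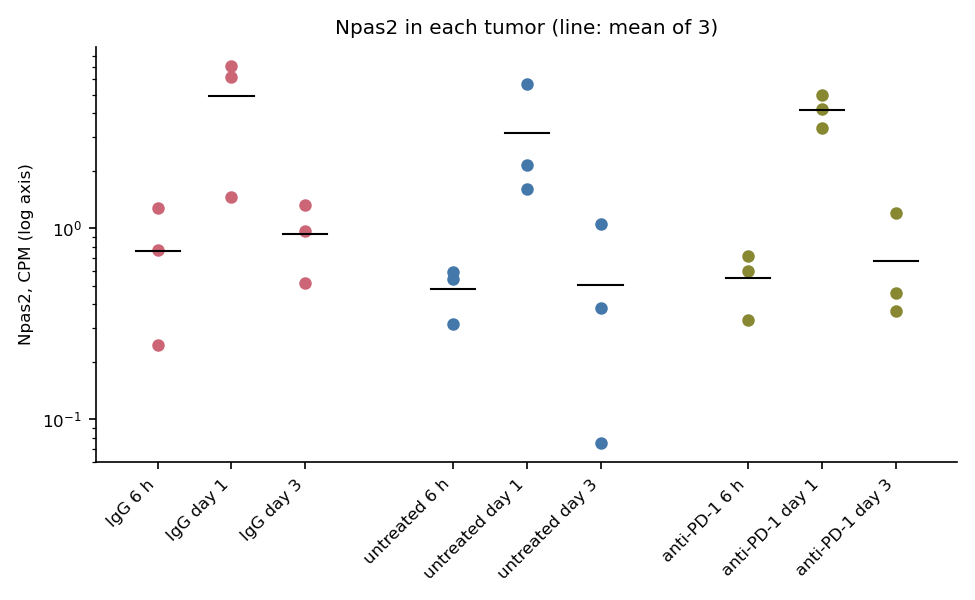
Npas2 level (CPM, log axis) in each tumor at 6 h, day 1 and day 3 in the IgG, untreated and anti-PD-1 courses, 3 tumors per time, with lines at the mean of each. The 9 day 1 tumors lie between 1.45 and 7.07 CPM and the 18 others between 0.0751 and 1.32 CPM.

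Day 3 was compared with 6 h in the same fit. Of 26848 genes, 0 (0%) had an adjusted p under 0.05 in edgeR's quasi-likelihood test with Benjamini-Hochberg adjustment (lowest adjusted p 0.935). At an unadjusted p under 0.05, 395 (1.47%) were higher and 747 (2.78%) lower, and the groups did not overlap in 1042 genes higher (3.88%) and 1503 lower (5.60%). The balance of these counts turned with single tumors. It was 1099 higher and 711 lower without 6 h replicate 1, 1239 and 816 without 6 h replicate 2, 272 and 239 without day 3 replicate 3, and 164 and 452 without 6 h replicate 6. Genes were again named only from those without overlap between 6 h and day 3. Among the 10 such higher genes with the smallest p-values were Mettl22, Atg2a, Gpr4, Lrch4, Abi3, Hhatl, Pcdh12, Arhgap23 and Sh2d3c. Mettl22, a lysine methyltransferase, had 8.80, 6.26 and 5.12 CPM at 6 h, 9.72, 10.4 and 13.1 CPM at day 1, and 11.7, 13.2 and 13.4 CPM at day 3. It lay above the 6 h tumors at both later times, with a difference of 0.92 ± 0.22 at day 3. The lower genes were Fgfbp3, Tiprl, Cstf2t, Katnbl1, Phf20, Eef1akmt2, Ifrd1, Mrpl1, Nras and Runx2os1. Fgfbp3, a carrier of fibroblast growth factors, had 1.62, 1.59 and 2.39 CPM at 6 h and 0.559, 0.548 and 0.188 CPM at day 3, a difference of −2.10 ± 0.58. Tiprl had 23.7, 16.5 and 25.9 CPM at day 3, so that it lay below its 6 h values at both later times, with −0.55 ± 0.15 at day 3. Cstf2t, an RNA 3′ end processing factor, had 36.8, 45.1 and 42.1 CPM at 6 h and 30.5, 24.4 and 31 CPM at day 3, a difference of −0.53 ± 0.15. Nras, the small GTPase, had 161, 170 and 293 CPM at 6 h and 147, 128 and 156 CPM at day 3. Its 6 h value was highest in replicate 6, and the difference of −0.54 ± 0.17 was −0.20 without that library.

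As a list, endothelial genes were higher in all 3 day 3 tumors than in the 6 h tumors. All 18 genes had a positive log2 fold change, with a median of 0.78, 2 at an unadjusted p under 0.05 (background 1.47%) and 8 that did not overlap (background 3.88%). The mean log2(CPM + 0.5) was 3.42, 3.61 and 3.57 at 6 h, 5.22, 2.51 and 3.90 at day 1, and 4.27, 4.92 and 4.10 at day 3. The 6 h and day 3 tumors each kept a narrow range, while the day 1 tumors lay both above and below all others. At day 1 the median was 0.70, with 17 of 18 positive and 1 at an unadjusted p under 0.05 (background 5.11%). It was 0.07 without day 1 replicate 2 and 1.20 without day 1 replicate 4. The day 1 and 6 h groups did not overlap in 0 of the 18 genes. Plvap, a protein of the fenestrae of capillaries, had 52.9, 51.7 and 15.6 CPM at 6 h, 128, 16.1 and 48.6 CPM at day 1, and 80.4, 121 and 74.2 CPM at day 3, a difference at day 3 of 1.20 ± 0.64. Without 6 h replicate 6, its lowest tumor, the Plvap difference was 0.84. Cdh5 (VE-cadherin), which joins endothelial cells, had 65.4, 67.3 and 52.0 CPM at 6 h, 311, 10.2 and 124 CPM at day 1, and 115, 194 and 117 CPM at day 3, a difference at day 3 of 1.20 ± 0.94. Both genes were lowest, or nearly so, in day 1 replicate 4, the tumor with the highest interferon genes. Of the genes named for day 3, Gpr4 and Pcdh12 are also known from endothelium. Gpr4, an acid-sensing receptor, had 0.703, 0.548 and 0 CPM at 6 h and 2.26, 5.78 and 3.14 CPM at day 3, a difference of 3.14 ± 0.88. Pcdh12, an endothelial protocadherin, had 2.20, 2.74 and 2.07 CPM at 6 h and 6.23, 12.4 and 6.90 CPM at day 3, a difference of 1.86 ± 0.55. In both, all 3 day 3 tumors lay above the 6 h tumors, as the rule by which they were named required. Without day 3 replicate 3 the list median was 0.47.

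Collagen and matrix genes had a median of 0.79 at day 1 (25 of 25 positive) and of 0.31 at day 3 (22 of 25 positive). At an unadjusted p under 0.05, 2 (8%) were higher at day 1, near the background of 5.11%, and 4 (16%) at day 3 (background 1.47%). The groups did not overlap in 0 genes at day 1 (background 6.40% higher) and in 7 (28%), all higher, at day 3 (background 3.88%). Without day 1 replicate 4 the day 1 median was 1.26, with 16 genes at an unadjusted p under 0.05, and without 6 h replicate 2 it was 1.08, with 9. Over all genes of these fits, 1803 of 30439 and 1971 of 30269 were higher at that threshold. Col1a1, the main chain of type I collagen, had 796, 2033 and 1650 CPM at 6 h, 4379, 1449 and 4358 CPM at day 1, and 2097, 1911 and 2139 CPM at day 3. Day 1 replicate 4 was the lowest of the day 1 tumors, and 6 h replicate 1 the lowest of all. Without 6 h replicate 1 the day 3 median was 0.13, with 15 genes positive, and without 6 h replicate 2 it was 0.61. Keratinocyte and hair genes had a median of −4.48 at day 3, with 13 of 21 lower at an unadjusted p under 0.05 (background 2.78%). The median was −0.50 with 0 lower once 6 h replicate 1 was left out. At day 1 their median was 1.05, and −4.83 without day 1 replicate 6. Skeletal muscle genes had a median of 3.97 at day 1, and of −2.79 without day 1 replicate 6, and at day 3 of −1.01, and of 1.73 without 6 h replicate 1. Both lists were high in a few tumors only, as given above.

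Several lists that were higher at day 1 were closer to their 6 h level at day 3, but endothelial genes were not (medians 0.70 and 0.78). Fc gamma receptor and complement genes had a median of 0.35 at day 3 (18 of 20 positive, 0 at an unadjusted p under 0.05), macrophage genes of 0.39 (17 of 21 positive, 2) and MHC class II and dendritic cell genes of 0.29. The mitotic median was −0.24 at day 3, with 4 of 20 positive and 2 lower at an unadjusted p under 0.05. Without day 3 replicate 3 these day 3 medians were 0.20 for Fc gamma receptor and complement genes, −0.0092 for MHC class II and dendritic cell genes and −0.13 for mitotic genes, and without 6 h replicate 2 that of macrophage genes was 0.65. The other lists had medians at day 1 and day 3 of 1.05 and −0.38 for neutrophil genes, 0.68 and 0.09 for inflammatory cytokines and chemokines, 0.17 and 0.10 for B and plasma cell genes, and 1.3 and 0.73 for adipocyte genes. Glucocorticoid-induced genes had 0.40 and 0.39. The remaining metabolic and stress lists lay nearer to 0 than these, at 0.04 and 0.17 for hypoxia and glycolysis, 0.01 and 0.11 for the integrated stress response, and −0.14 and −0.17 for heat shock genes. Erythrocyte genes had −0.21 and −0.33, mitochondrially encoded genes 0.15 and −0.08, and nitric oxide and arginine genes 0.12 and 0.05. Over all genes tested the medians were −0.003 and −0.06.

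**Figure D5:**
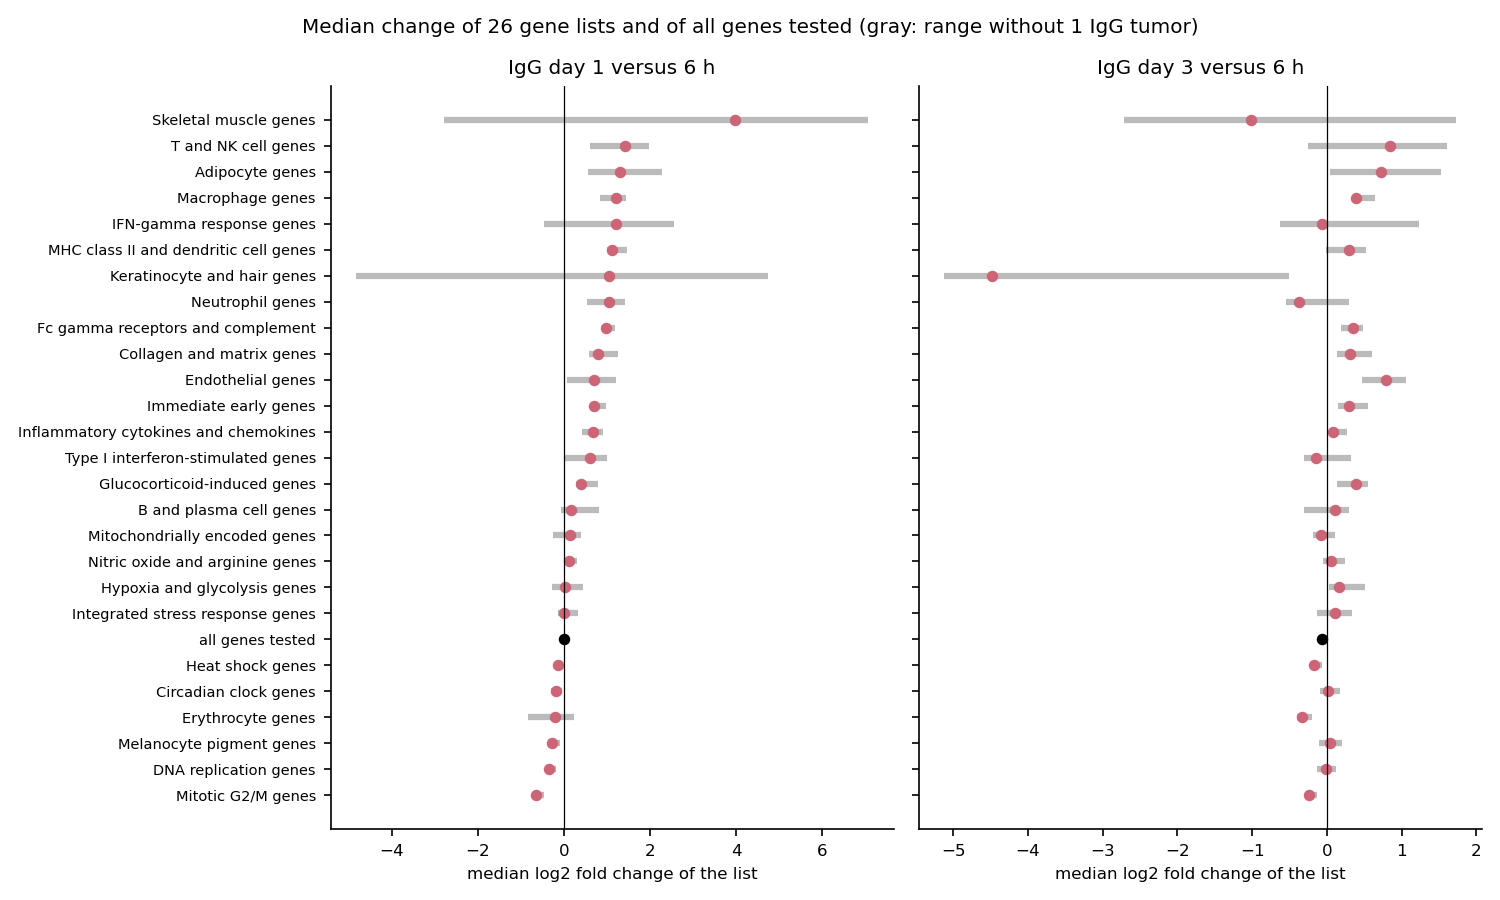
Median log2 fold change of the 26 gene lists and of all genes tested at day 1 and day 3 relative to 6 h (points), with the range over fits that leave out 1 of the 9 IgG tumors (gray lines). The lines of mitotic genes at day 1 stay below 0 and those of Fc gamma receptor and complement genes above 0, while the line of IFN-gamma response genes at day 1 crosses 0.

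Between day 1 and day 3, again 0 of 26848 genes (0%) had an adjusted p under 0.05 in edgeR's quasi-likelihood test with Benjamini-Hochberg adjustment. At an unadjusted p under 0.05, 490 genes (1.83%) were higher and 991 (3.69%) lower at day 3. Without day 1 replicate 6 the counts were 215 and 678. This comparison shares its day 1 and day 3 tumors with those above, so it is not separate evidence. All 20 mitotic genes were higher at day 3 than at day 1, with a median log2 fold change of 0.38 and 3 at an unadjusted p under 0.05. Of the 20 Fc gamma receptor and complement genes, 0 were higher, with a median of −0.65 and 1 lower at an unadjusted p under 0.05.

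The untreated and anti-PD-1 courses cover the same times in other mice. Tested directly, the change from 6 h to day 1 or day 3 differed in 0 genes (0%) between IgG and untreated tumors and in 0 genes (0%) between IgG and anti-PD-1 tumors by edgeR's quasi-likelihood test with Benjamini-Hochberg adjustment. At an unadjusted p under 0.05, the change to day 1 was higher in IgG than in untreated tumors in 493 genes and lower in 578, and the change to day 3 higher in 261 and lower in 986. Relative to anti-PD-1 tumors the counts were 499 and 657 at day 1, and 261 and 555 at day 3. The balance was not stable. With the summed level of sensory receptor genes, a measure of background, as a covariate, the day 3 counts against untreated tumors were 540 higher and 360 lower. Without IgG 6 h replicate 1, the day 1 counts were 1232 and 702 against untreated and 1346 and 779 against anti-PD-1 tumors, and the day 3 counts against anti-PD-1 tumors 695 and 693. For mitotic genes the day 1 median was −0.64 in IgG, −0.26 in untreated and −0.34 in anti-PD-1 tumors, so it was negative in all 3 courses. DNA replication genes had −0.35, −0.31 and −0.35, and pigment genes −0.27, −0.28 and −0.28. Fc gamma receptor and complement genes had 0.98 in IgG, 0.57 in untreated and 0.74 in anti-PD-1 tumors. Macrophage genes had 1.22, 0.40 and 0.77, and MHC class II and dendritic cell genes 1.12, 0.04 and 0.56.

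Single genes give the size of these differences. Fcgr3 was 1.18 ± 0.41 higher at day 1 in IgG tumors, 0.19 ± 0.40 in untreated and 0.99 ± 0.41 in anti-PD-1 tumors on the log2 scale, and the difference between IgG and untreated changes was 0.98 ± 0.57. Adgre1 differed from 6 h by 1.44 ± 0.41, 0.23 ± 0.41 and 1.06 ± 0.41, with a difference between IgG and untreated changes of 1.20 ± 0.58. Mki67 differed by −0.74 ± 0.26, −0.18 ± 0.26 and −0.37 ± 0.26, with a difference between IgG and untreated changes of −0.56 ± 0.36. None of these differences passed the test, and each had an adjusted p of 0.9999 or more in edgeR's quasi-likelihood test with Benjamini-Hochberg adjustment. IFN-gamma response genes had a day 1 median of 1.21 in IgG, 0.30 in untreated and −1.15 in anti-PD-1 tumors, and immediate early genes of 0.69, 0.03 and 0.36. At day 3, endothelial genes had a median of 0.78 in IgG, 0.12 in untreated and −0.30 in anti-PD-1 tumors. Each IFN-gamma value rests on 3 tumors that differ widely among themselves, as shown above for the IgG course.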

How the data were processed

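RNA-seq was made from whole tumors, 1 library per tumor and mouse, with a strand-specific kit and paired reads. The authors found adapters with BBMerge 37.02, cut them with cutadapt 1.8.1, aligned reads to mm10 with STAR 2.7.7a and estimated gene counts with RSEM 1.3.0 on GENCODE vM21. The deposited table holds whole-number counts without normalization for 55450 genes and 48 libraries. Its name refers to a different counting program, and which one made the values is not settled here. All 55450 identifiers matched vM21.

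The 30 libraries of the WT time course (10 conditions of 3 tumors) were fitted together with edgeR 4.0.16 in R 4.3.3, using TMM, filterByExpr with a minimum count of 10 (26848 genes), 1 term for each condition and its quasi-likelihood F-test, two-sided, with 20 residual degrees of freedom and a common coefficient of variation of 0.671. Benjamini-Hochberg adjustment ran over every gene tested, with a threshold of 0.05. The p-values judge a difference against the spread between tumors of the same condition, estimated over all 30 libraries. The study's methods name DESeq2, which was run as an alternative (DESeq2 1.42.0), since they do not say which samples entered its fit. The scripts were tested on simulated data. Promoters and figures used Python 3.11.15 and matplotlib 3.10.9.

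The tumors, the 26 gene lists and the rules were chosen with earlier results of these data known. Lists are described by counts and medians, with no set test. Named genes were, for day 1 and day 3 against 6 h and in each direction, the 10 with the smallest p-value among those with at least 1 CPM in the higher group and no overlap, filled from genes that missed the threshold. Symbols of the form Gm plus digits or ending in Rik were left out. Added were the 3 members of each list with the highest CPM, and Nos2, Irf1, Irf3, Irf7, Ifng, Ifnb1, Cd274, Pdcd1 and Cd8a. Not all of them are given with values, and some items are not reported here.

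Conditions came from the sample titles. Libraries that share a replicate number in different conditions did not deviate together (median correlation −0.03 over 65 pairs, and −0.0051, between −0.09 and 0.07, over the 4 pairs of IgG libraries), so the numbers were not taken as pairs. No 2 replicates were copies, as replicate libraries differed by a chi-square of 16.2 to 232 per gene. Alternatives were DESeq2's size factors, no filter, a replicate block, a background covariate from sensory receptor genes, only the IgG groups in the fit, DESeq2's Wald test and each IgG tumor left out. A GC correction and the fit without both keratinocyte-rich tumors were added after seeing the data.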

Additional observations from a re-analysis of the deposited data

How the results depend on the processing

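Among the settings tried, 2 gave genes with an adjusted p under 0.05. With no filter on low counts, edgeR's quasi-likelihood test called 162 genes at day 1 against 6 h (160 higher, 2 lower), 121 at day 3 against day 1 (2 higher, 119 lower), 60 in the day 1 difference between IgG and untreated tumors and 2 in that between IgG and anti-PD-1 tumors. Of the 160, 88 were highest in day 1 replicate 6 and 58 in day 1 replicate 4. DESeq2's Wald test called 25 genes at day 1 (10 higher, 15 lower), 17 at day 3 (1 higher, 16 lower), 21 at day 3 against day 1 (1 higher, 20 lower), 5 and 11 in the day 1 and day 3 differences between IgG and untreated tumors, and 12 in the day 3 difference between IgG and anti-PD-1 tumors. Of its 16 lower genes at day 3, 15 had 0 counts in all 3 day 3 tumors. The calls of both settings at day 1 shared 4 genes (2.47% of 162 and 16% of 25), and the cause was not tested. Every other setting gave 0 genes in all 7 comparisons. A replicate block, which pairs tumors by number although the numbers showed no pairing, gave 0 genes at an adjusted p under 0.05, and at day 1 an unadjusted p under 0.05 for 1074 higher and 1213 lower genes. Of the log2 fold changes of single genes under alternatives, 835 kept their direction and side of the threshold, 20 passed it (under one of the settings above), and 12 turned. With each tumor left out in turn, the day 1 values ran from −0.47 to 0.067 for Cdc20, −0.033 to 1.77 for Fcgr4, −0.0081 to 0.73 for Mrc1, −1.18 to 3.19 for Iigp1, −0.47 to 2.93 for Irf1 and −0.49 to 2.56 for Cd274, with the lowest values of Fcgr4 and the last 3 without day 1 replicate 4 and the highest without 6 h replicate 1. The day 3 value of Npas2 ran from −0.086 to 0.96, and was −0.0074 with the replicate block and −0.12 without both keratinocyte-rich tumors. The latter setting gave −0.29 for Mrc1 at day 1, and the block −0.65 for Nos2 at day 3. A list median was counted as moved if it shifted by at least the pooled standard deviation of that list's mean level among tumors of the same time. By that rule medians moved in 124 of the alternatives and held in 1202. The rule is loose for lists that varied widely between tumors, and a median counted as held could change its sign. That of IFN-gamma response genes at day 3 did so without 6 h replicate 1. A count of 0 allows up to 0.0727 to 0.105 CPM in a tumor, so it does not separate absence from a level below that.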
